A study of Mus musculus with 6 samples.

Results

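The lipid droplet of a fat cell is coated by proteins that decide how large the droplet grows and how readily its triglyceride is released. The genes described here encode the CIDE proteins (Cidea, Cideb, Cidec), the perilipins (Plin1 to Plin5) and a pair of droplet biogenesis proteins, FIT2 (gene Fitm2) and seipin (gene Bscl2). They were picked by symbol, and all 10 are among the 16538 genes of the table. Cidea and Plin5 are grouped as brown-type droplet genes and Cidec, Plin1 and Plin4 as white-type ones, after the fat depots in which each is known to be abundant. The comparison asks whether the droplet coat genes of inguinal fat differed between control mice and mice with an adipocyte deletion of Nrg4, which encodes the secreted factor neuregulin 4.

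RNA-Seq, which counts sequencing reads per gene, was performed on inguinal white adipose tissue (iWAT), a subcutaneous mouse depot that gains beige adipocytes in the cold. The 3 control samples came from mice with floxed Nrg4 and no deletion (fl/fl, labelled wt) and the 3 AKO samples from mice in which Adiponectin-Cre, active in adipocytes, deletes Nrg4, so that other cells keep the gene. Both groups were housed at 8°C, for 10 days by the labels and for longer by the study's text. A sample is a pool of the RNA of 2 animals of like genotype, whose age and sex the labels do not give. Values are read counts per gene divided by a size factor per sample, called normalized counts, and the samples held 17570335 to 18373707 reads on the listed genes. Normalized counts of the targeted gene, Nrg4, were 3128, 3102 and 3092 in control and 2577, 2627 and 2691 in AKO, so that the AKO samples were all lower, but by only 15.3% in mean. These counts sum the whole gene, so they check the labels in direction but do not show how completely the gene was inactivated. By quantitative PCR, the study found almost no Nrg4 mRNA left in the iWAT of AKO mice.

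CIDE proteins sit where droplets touch each other and move lipid from the smaller to the larger droplet. CIDEC (also called FSP27) is known for the single large droplet of white adipocytes, and CIDEA for the many small droplets of brown and beige adipocytes. Perilipin 1 is the main gatekeeper of lipolysis in adipocytes, holding the lipase activator CGI-58 (gene Abhd5) until protein kinase A phosphorylates it. Perilipin 5 coats droplets in tissues that burn fat, such as brown fat, heart and muscle, and brings droplets and mitochondria together. FIT2 and seipin act in the endoplasmic reticulum, where droplets form and bud.

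Both brown-type genes separated the genotypes, with all AKO samples below all control samples, as in 8.31% of all genes tested. Cidea averaged 44.0% less in AKO iWAT and Plin5 36.2% less, whereas the white-type genes differed by at most 10.1% in mean, with overlapping groups. Neither brown-type gene passed the threshold of limma over all genes. Both passed that of DESeq2, which called 0.757% of genes lower. In bulk tissue, fewer beige adipocytes and less of these RNAs per cell cannot be told apart.

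Cidea lies on chromosome 18 of GRCm38 (67343604 to 67367785, plus strand). Its normalized counts were 4901, 7346 and 5343 in control and 2821, 3542 and 3483 in AKO. The highest AKO sample was thus below the lowest control sample, and control replicate 2 stood above the other control samples. Control iWAT averaged 5863 ± 1303 and AKO iWAT 3282 ± 400.2 (SD, n = 3 each). The log2 fold change, computed on log2(normalized count + 1), was -0.82 with a 95% interval from -1.18 to -0.46 and an adjusted p of 0.227 from limma over the 13855 genes tested. This separation gives a p of 0.1 in the 2-sided exact permutation test, the smallest that 3 against 3 can give. DESeq2 on the whole reads recovered from the table, the test named in the study's methods, gave an adjusted p of 1.97e-06. Over all alternative settings the adjusted p ranged from there to 0.583, the latter from limma without AKO replicate 3. With all 6 samples the highest was 0.238, from limma with robust shrinkage.

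Plin5, on the minus strand of chromosome 17 (56111601 to 56117596), showed the same separation at a lower level. Normalized counts were 847, 1124 and 764 in control and 463, 680 and 603 in AKO. Control replicate 2 was again the highest and AKO replicate 1 the lowest, as for Cidea. The averages were 912 ± 188 for control and 582 ± 110 for AKO (SD, n = 3 each). The log2 fold change was -0.65 with a 95% interval from -1.05 to -0.24 (adjusted p = 0.374 from limma and 0.0167 from DESeq2). Across the alternative settings the adjusted p of Plin5 reached 0.742, from limma without AKO replicate 3. With all 6 samples it reached 0.423, from limma with robust shrinkage. Without control replicate 2 the log2 fold changes were -0.65 for Cidea and -0.49 for Plin5.

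**Figure D1:**
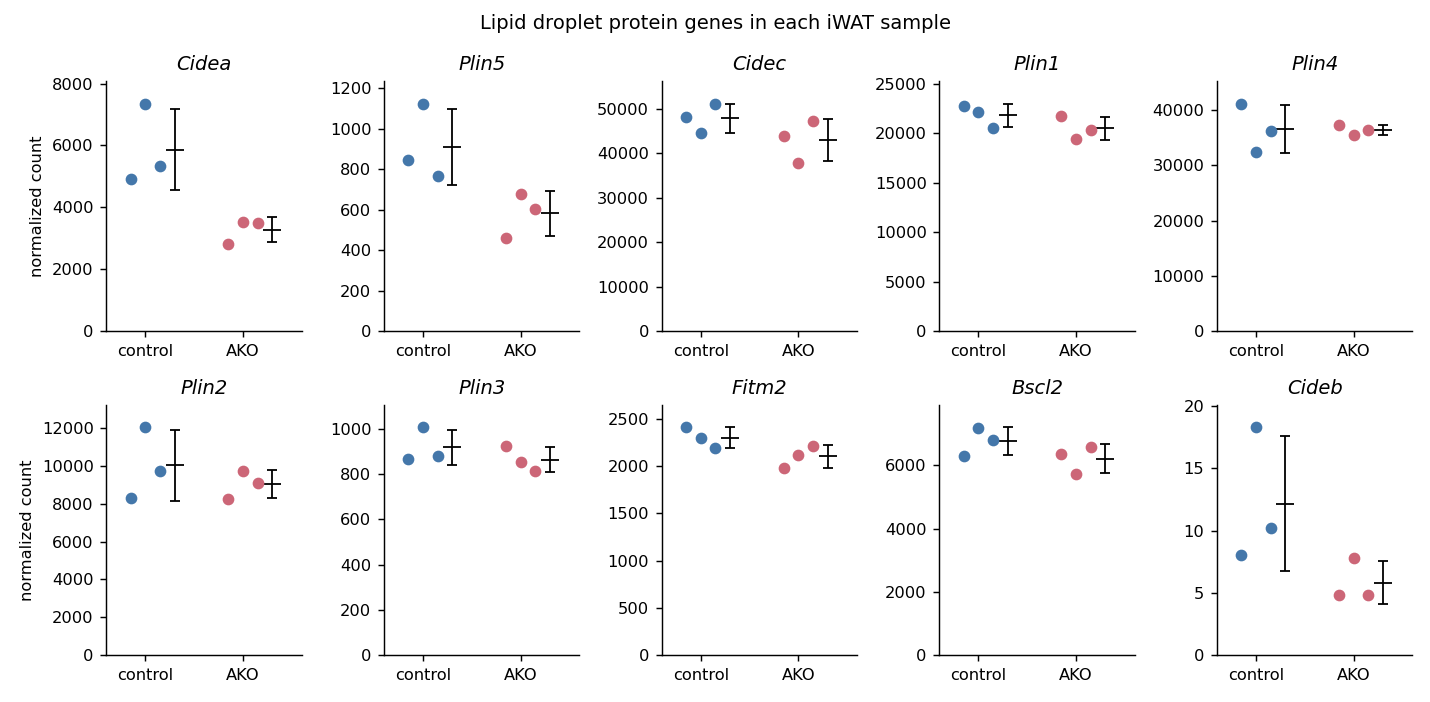
Normalized counts (vertical axes, each starting at 0) of the 10 droplet protein genes in 3 control (blue) and 3 AKO (red) iWAT samples, in replicate order, with the mean and SD in black beside them. The AKO points of Cidea (2821 to 3542) and Plin5 (463 to 680) lie wholly below the control points, as do those of Cideb at few counts. Those of Cidec, Plin1 and Plin4 overlap the control points.

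Of the white-type genes, Cidec (chromosome 6, 113424634 to 113435760, minus strand) was the most abundant. Normalized counts of Cidec were 48199, 44544 and 51040 in control and 43902, 37945 and 47391 in AKO, and the groups overlapped. Its log2 fold change was -0.16 with a 95% interval from -0.41 to 0.09 (adjusted p = 0.723 from limma). A decrease of up to 24.7% in Cidec therefore lies within the interval, while the interval of Cidea starts at a decrease of 27.4%.

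Plin1 (chromosome 7, 79720218 to 79732903, minus strand) had 22773, 22190 and 20542 normalized counts in control and 21778, 19451 and 20304 in AKO. The range within each group was wider than the difference between the means, with a log2 fold change of -0.09 and a 95% interval from -0.27 to 0.09 (adjusted p = 0.792 from limma). Plin4, which encodes the S3-12 protein of nascent droplets in white adipocytes, had 41095, 32425 and 36203 normalized counts in control and 37317, 35464 and 36376 in AKO. The AKO values of Plin4 all lay inside the control range, the means differed by 0.516%, and the 95% interval of the log2 fold change ran from -0.24 to 0.23 (adjusted p = 0.999 from limma).

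Plin4 and Plin5 are neighbours, 1797 bases apart and read in the same direction on chromosome 17 (Plin4 from 56100591 to 56109803), yet only Plin5 had separated groups. The 250 bases before the RefSeq start of both are printed here for that reason, with those of Plin2, which holds the same nuclear receptor half-site as Plin5. Capitals mark AGGTCA, the half-site of nuclear receptors such as the PPARs and ERRs (written TGACCT where it is on the other strand), and TATAA, the core of the TATA box, on the gene strand 20 to 40 bases before the start.
Plin5, chr17:56117549-56117798, minus strand: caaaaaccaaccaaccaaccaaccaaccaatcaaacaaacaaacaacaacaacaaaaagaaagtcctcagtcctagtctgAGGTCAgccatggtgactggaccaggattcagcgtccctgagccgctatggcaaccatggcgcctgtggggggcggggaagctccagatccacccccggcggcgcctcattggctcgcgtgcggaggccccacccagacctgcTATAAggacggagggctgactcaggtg
Plin4, chr17:56109783-56110032, minus strand: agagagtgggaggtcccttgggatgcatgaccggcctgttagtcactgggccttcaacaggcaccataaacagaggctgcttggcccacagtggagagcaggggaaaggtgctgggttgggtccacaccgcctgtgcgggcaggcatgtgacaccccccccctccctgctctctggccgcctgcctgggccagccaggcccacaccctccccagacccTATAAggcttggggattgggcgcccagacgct
Plin2, chr4:86670060-86670309, minus strand: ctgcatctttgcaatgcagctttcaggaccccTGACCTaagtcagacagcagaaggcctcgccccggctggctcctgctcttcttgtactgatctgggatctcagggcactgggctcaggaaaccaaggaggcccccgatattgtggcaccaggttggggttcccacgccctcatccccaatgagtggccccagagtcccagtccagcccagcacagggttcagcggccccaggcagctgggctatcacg
Sequences and coordinates are those of RefSeq on GRCm38.p6. The set of RefSeq promoters used here held 9 of the 10 genes, all but Cidea. The farthest upstream start was used where a gene has several. The half-site occurred in Plin5, 165 to 170 bases before the start, and in Plin2, 213 to 218 bases before the start on the other strand, and in none of the other 7 windows. Searched on both strands, it was in 14.0% of 32851 RefSeq promoters of the same length. TATAA occurred in Plin4 and Plin5, against 3.38% of all promoters, and overlapped no half-site. The DR1 element AGGTCANAGGTCA, a direct repeat of the half-site with a base between (0.0335% of promoters), and the extended ERR site TCAAGGTCA (0.387%) matched none of the 9 windows. The matches describe letters only and do not show that a factor binds there.

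Plin2, the general perilipin of most cells, had 8321, 12045 and 9758 normalized counts in control and 8259, 9731 and 9131 in AKO (log2 fold change -0.14, adjusted p = 0.817 from limma). Its highest value was in control replicate 2, and without that sample the log2 fold change was 0.0014. Plin3, the cytosolic TIP47 that moves onto new droplets, had 868, 1007 and 881 in control and 923, 854 and 815 in AKO (log2 fold change -0.09, adjusted p = 0.815 from limma). Both genes had overlapping groups.

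Fitm2 had 2409, 2300 and 2192 normalized counts in control and 1978, 2118 and 2213 in AKO. The groups overlapped by a single AKO sample, and the log2 fold change was -0.13 with a 95% interval from -0.29 to 0.03 (adjusted p = 0.614 from limma). Bscl2 had 6307, 7178 and 6812 in control and 6356, 5714 and 6586 in AKO, again with overlap (log2 fold change -0.12, adjusted p = 0.700 from limma).

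Cideb, the CIDE protein of liver and gut, was close to the lower end of detection. Control libraries held 8, 17 and 10 of its reads and AKO libraries 5, 8 and 5. Its mean of 8.98 normalized counts was under the minimum of 10, so it was not tested with limma, and DESeq2 gave an adjusted p of 0.999. Of its 1488 exon bases, 1136 (76.3%) are shared with Nop9 on the opposite strand, and since the strand setting of the counting is not stated, reads of the 2 genes cannot be told apart. No 2 of these 10 genes share a run of 50 exon bases with each other.

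Across the group, 9 of the 10 genes were tested. None passed the adjusted threshold of limma (background 0.0144% of all genes, 0.00722% lower in AKO) or of edgeR (0.0216%). With limma at an unadjusted p under 0.05, 2 of 9 were lower in AKO, Cidea and Plin5, against 4.69% of all genes in that direction. DESeq2 called the same 2, against 0.757% of genes called lower. These 2 were also the tested genes whose AKO values all lay below the control values, against 8.31% of all genes. All 9 estimates were below 0, against 48.1% of all genes, but that of Plin4 was -0.0010 and turned above 0 with TMM scaling.

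**Figure D2:**
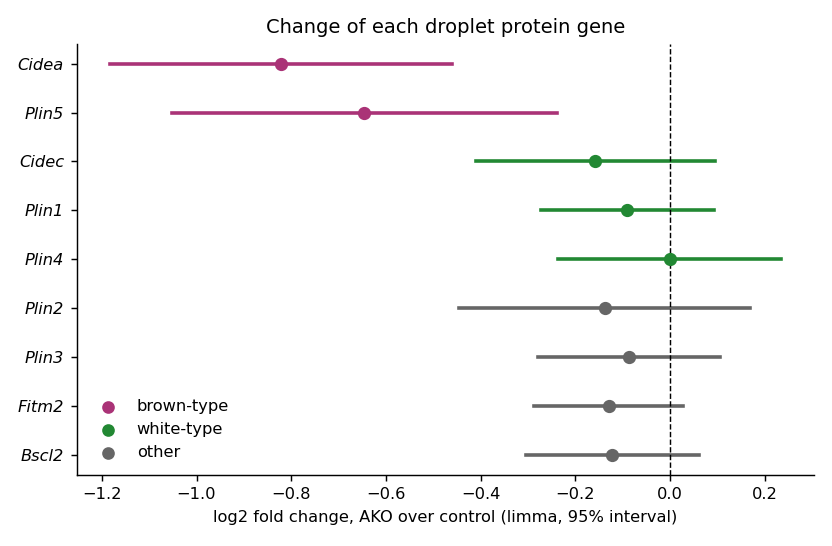
Log2 fold change of AKO over control (horizontal axis, points) with its 95% interval (lines) from limma for the 9 droplet protein genes tested. The intervals of Cidea (-1.18 to -0.46) and Plin5 (-1.05 to -0.24), in purple, lie below 0, and those of the white-type genes (green) and of the remaining genes (grey) include it.

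The contrast of brown-type with white-type genes was measured within each sample as a ratio of normalized counts, which cancels the size factor. The ratios are not per length, so only their change between samples is compared. Cidea counts were 10.2%, 16.5% and 10.5% of Cidec counts in control and 6.43%, 9.33% and 7.35% in AKO. The AKO ratios were all below the control ratios, by -0.66 on the log2 scale in mean (exact permutation test, p = 0.1, the smallest possible). Without control replicate 2 the difference was -0.44.

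Plin5 counts were 3.72%, 5.06% and 3.72% of Plin1 counts in control and 2.13%, 3.49% and 2.97% in AKO. This ratio too was lower in every AKO sample, by -0.56 on the log2 scale (exact permutation test, p = 0.1). It was -0.36 without AKO replicate 1, whose Plin5 count was the lowest of the 6 samples. Of the remaining ratios of a brown-type to a white-type gene, Cidea to Plin1 (-0.73), Cidea to Plin4 (-0.82) and Plin5 to Plin4 (-0.65) were also lower in every AKO sample. Plin5 to Cidec (-0.49) overlapped, since AKO replicate 2 reached 1.79% and control replicate 3 had 1.50%.

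**Figure D3:**
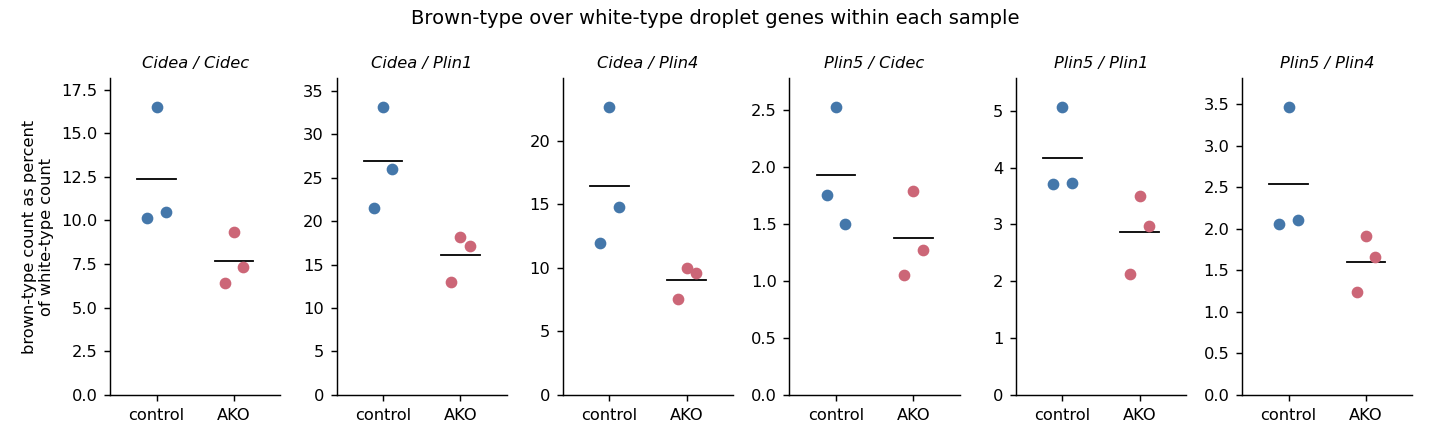
Normalized count of a brown-type gene as a percentage of that of a white-type gene (vertical axes from 0) in each control (blue) and AKO (red) sample, with group means as lines. In 5 of the 6 panels every AKO point lies below every control point, and in the Plin5 to Cidec panel the groups overlap (AKO up to 1.79%, control down to 1.50%).

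To set the genes beside each other, counts were divided by the length of their annotated exons in kilobases. In control iWAT Cidec was highest at 25823 ± 1754 normalized counts per kilobase (SD, n = 3), followed by Plin4 at 6331 ± 752, Cidea at 5259 ± 1168 and Plin1 at 4697 ± 249. The ranges of Plin4 and Cidea overlapped, as did those of Cidea and Plin1, so these neighbours cannot be ordered. Plin2 (2859), Bscl2 (1147), Fitm2 (580), Plin5 (437), Plin3 (243) and Cideb (8.17) followed with separate ranges.

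In AKO iWAT Plin1 (4412 ± 253) stood above Cidea (2944 ± 359) with separate ranges, and since this pair overlapped in control, no change of order between the groups can be stated. Cidea in AKO overlapped Plin2 (2574 ± 211), and Plin5 (279 ± 52.6) overlapped Plin3 (228 ± 14.5). Cidec remained first at 23211 ± 2574 normalized counts per kilobase.

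Within the CIDE family Cidea made up 16.9% ± 3.97 (SD, n = 3) of the summed level per kilobase in control and 11.3% ± 1.93 in AKO, with no overlap (exact permutation test, p = 0.1), and Cidec made up nearly all of the rest. Within the perilipins Plin5 made up 2.997% ± 0.60 in control and 2.02% ± 0.40 in AKO, also with no overlap (exact permutation test, p = 0.1). The more abundant perilipins kept overlapping shares, with Plin4 at 43.4% and 45.7%, Plin1 at 32.2% and 31.98%, and Plin2 at 19.7% and 18.7% in control and AKO. The summed level per kilobase of both families was lower in every AKO sample, at 30370, 30601 and 32299 against 26188, 23627 and 28661 for CIDE genes and at 15016, 14620 and 14063 against 13961, 13645 and 13768 for perilipins. The sum of normalized counts over all genes tested was lower in every AKO sample too, at 17687148, 18885249 and 18418070 in control against 17634706, 17555876 and 17578696 in AKO.

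**Figure D4:**
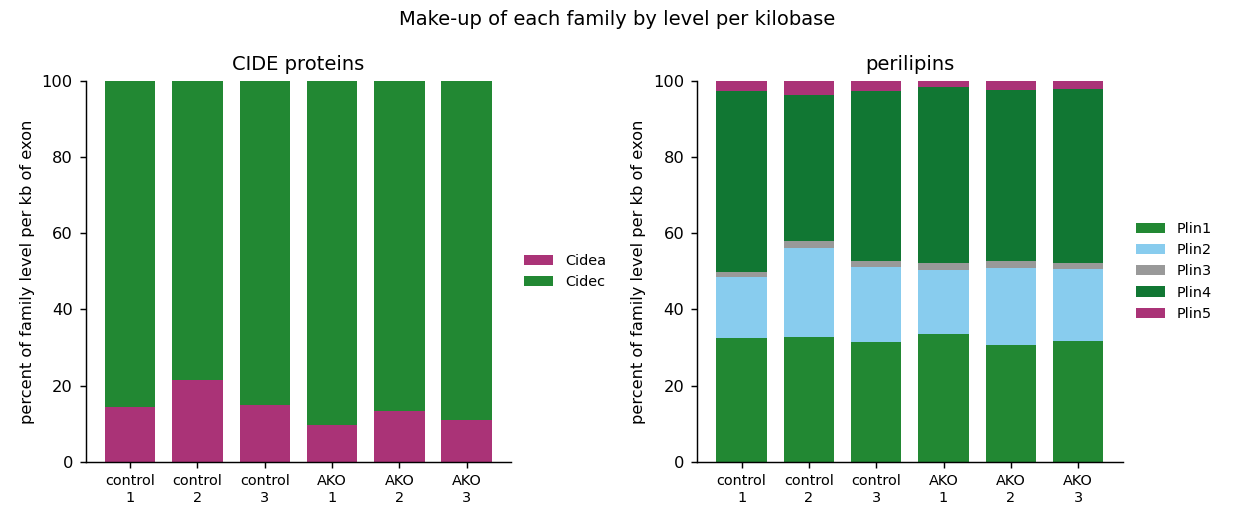
Share of each gene in the summed level per kilobase of exon of its family (vertical axes, percent) in each of the 6 iWAT samples. Cidea makes up 14.5% to 21.5% of the CIDE family in control and 9.66% to 13.4% in AKO, Plin5 is the thin band at the top of the perilipins, and Cideb, at no more than 0.0401%, is not drawn.

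Across the 6 samples, Cidea and Plin5 followed each other (Pearson r = 0.960 on log2 values), and Plin2 and Plin4 ran in opposite directions (r = -0.897). These and the following correlations describe 6 points that fall into 2 genotype groups and share a size factor per sample, and they carry no test. The genes most like Cidea were Pomgnt1 (r = 0.999), a glycosyltransferase, Cox7a1 (0.996), a subunit of cytochrome c oxidase, Acot11 (0.996), an acyl-CoA thioesterase, Idh3g (0.994), of the citrate cycle, and Atp5b (0.994), of ATP synthase. Of 13854 genes, 162 had r above 0.95 with Cidea.

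For Plin5 the most similar patterns were those of C030037D09Rik (r = 0.993), Acss1 (0.993), a mitochondrial acetyl-CoA synthetase, Zcrb1 (0.987), Tfdp1 (0.986) and Fam96a (0.984), and 89 genes exceeded 0.95. For Cidec they were Dctn2 (0.993), Nnmt (0.992), Zfp963 (0.985), Mthfsl (0.984) and Cyb561d2 (0.975), with 26 genes above 0.95. For Plin1 they were Tnip1 (0.985), AA388235 (0.981), Sctr (0.978), Upf3a (0.977) and Txnrd1 (0.973), with 22 above it. Cidec followed Cidea only weakly (r = 0.351), as did Plin1 (r = 0.395).

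The other genes of the droplet were taken from a list of 43, of which 42 were tested. Of these 29 were lower and 13 higher in AKO, while 48.1% of all genes were lower. None was called by limma, and the median log2 fold change was -0.08 against 0.01 over all genes. At an unadjusted p under 0.05, 7 of 42 were lower (4.69% of all genes) and 1 was higher (4.41%). DESeq2 called Clstn3, Ppara and Cebpb, all lower.

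Of 7 lipolysis partners of the perilipins, 5 were lower with a median of -0.13. Abhd5, the activator that perilipin 1 and perilipin 5 bind, had 4121, 4670 and 4492 normalized counts in control and 3538, 3651 and 4158 in AKO (log2 fold change -0.23, adjusted p = 0.498 from limma). Pnpla2, which encodes the lipase ATGL that it activates, had 102695, 104633 and 104154 in control and 87904, 85119 and 95513 in AKO (log2 fold change -0.22, adjusted p = 0.568 from limma). Pnpla2 was lower in every AKO sample and Abhd5 overlapped. The lipases that follow, Lipe and Mgll, each had a log2 fold change of -0.13.

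Of 10 genes of droplet formation and filling, 5 were lower with a median of -0.01, and the abundant Dgat2 (0.13), Agpat2 (-0.10) and Lpin1 (0.08) of triglyceride synthesis stayed near 0. Fitm1, the muscle relative of Fitm2, had 1.004, 23.7 and 17.3 normalized counts in control and 21.1, 52.7 and 76.2 in AKO (log2 fold change 2.22, adjusted p = 0.539 from limma). The estimate was 1.09 without control replicate 1, which had a single read, and 1.35 with a pseudocount of 10. The summed skeletal muscle markers had the same order of samples, at 662, 28543 and 15965 normalized counts in control and 21060, 79040 and 121494 in AKO. Their part in the Fitm1 values was not tested.

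Of 17 other droplet surface proteins tested, 13 were lower with a median of -0.06. Clstn3, whose locus also encodes the adipocyte droplet protein CLSTN3B, had 2150, 2968 and 2316 normalized counts in control and 1775, 1683 and 1774 in AKO. Its groups were separate, with a log2 fold change of -0.49 (adjusted p = 0.315 from limma and 0.0042 from DESeq2). Across the alternative settings its adjusted p reached 0.709, from limma with a sample left out. Ces1d, a carboxylesterase of fat (-0.34), and Aifm2 (-0.24) were also lower in every AKO sample, at unadjusted p of 0.0141 and 0.0472 from limma. Of the caveola genes, Ptrf (-0.13) was lower in every AKO sample too, at an unadjusted p of 0.105 from limma, and Cav1 (-0.06) overlapped.

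Of 8 transcription regulators of droplet genes, 6 were lower with a median of -0.17. Ppara, a receptor for fatty acids, had 1801, 2029 and 1228 normalized counts in control and 1297, 1064 and 1083 in AKO, with overlap (log2 fold change -0.53, adjusted p = 0.484 from limma and 0.0474 from DESeq2). Cebpb had 1741, 2239 and 1778 in control and 1077, 1193 and 1656 in AKO, with separate groups (log2 fold change -0.57, adjusted p = 0.414 from limma and 0.0354 from DESeq2). Across the alternative settings the adjusted p reached 0.789 for Ppara and 0.718 for Cebpb, from limma with a sample left out. Esrra, which encodes the receptor ERRα, was lower in every AKO sample (-0.31, adjusted p = 0.387 from limma), as was Cebpa by a smaller margin (-0.10). Pparg (-0.06) and Rxra (0.01) overlapped.

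**Figure D5:**
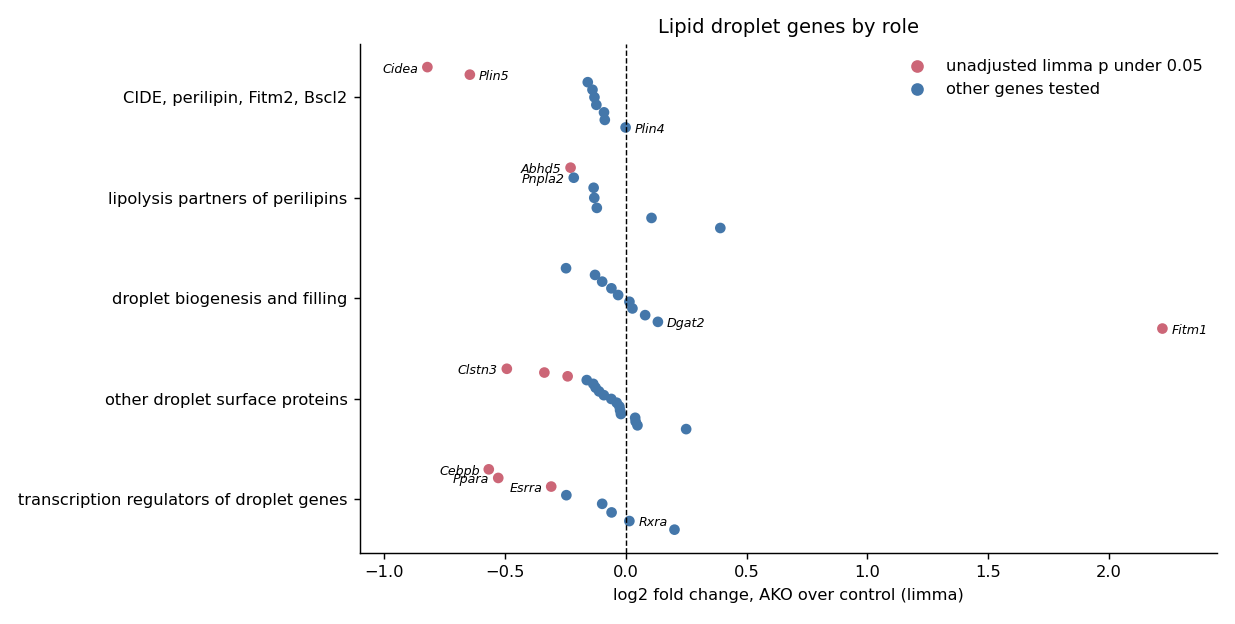
Log2 fold change of AKO over control (horizontal axis) of the 9 droplet protein genes and the 42 other droplet genes tested, in rows by role, with genes at an unadjusted limma p under 0.05 in red. Cidea (-0.82) and Plin5 (-0.65) lie farthest to the left, and Fitm1 (2.22), a gene of few counts, farthest to the right.

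The cell types of the samples bear on these values. The 7 adipocyte markers, led by Fabp4 and Cfd, summed to 431493 to 470360 normalized counts in control and 378487 to 438226 in AKO, with overlap and none at an unadjusted p under 0.05. All 9 brown or beige markers, led by Ucp1 and Kcnk3, were lower in AKO, 8 of them at an unadjusted p under 0.05, and their sums of 26452 to 38591 in control and 11349 to 14529 in AKO were separate. Control replicate 2, highest for Cidea and Plin5, also had the highest sum of these markers.

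Skeletal muscle also expresses Plin5. Of 14 muscle markers, led by Acta1 and Myh4, 11 were higher in AKO, 1 of them at an unadjusted p under 0.05 from limma. Their median log2 fold change was 3.66, and their sums, given beside Fitm1, overlapped between the groups. Macrophage markers, led by Lyz2 and C1qa, were higher in AKO in 9 of 9, 4 of them at an unadjusted p under 0.05, with overlapping sums (10468 to 14913 in control, 12969 to 17908 in AKO). Adipocyte progenitor markers, led by Pi16 and Ly6a, were higher in 4 of 4, 2 at an unadjusted p under 0.05, with sums of 6042 to 8514 in control and 7755 to 11201 in AKO. Mammary epithelium markers varied from 12.9 to 1227 in control and from 137 to 1636 in AKO, with Krt8, Krt14, Krt5 and Epcam at 0 in control replicate 2. Lymphocyte sums were 638, 77.4 and 63.0 in control and 81.6, 840 and 58.8 in AKO, and the sums of 4 endothelial and 3 hepatocyte markers overlapped. The part of these cell types in the droplet gene values was not tested.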

How the data were processed

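The authors used STAR for alignment, featureCounts with GENCODE annotation for counting and DESeq2 for scaling. The deposited values are a signal, namely reads over a size factor, not divided by length. Beside them stand log2 fold changes and p-values that the authors computed, which were not used. Neither the filter behind the listed genes nor the strand of counting is stated. Every value was a whole multiple (tolerance 0.001) of the value of 1 read, from 0.960 to 1.08, so whole reads were recovered.

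The log2(value + 1) of 13855 genes (mean 10 or more) was tested with limma (version 3.58.1, R 4.3.3, trend in the variance), with Benjamini-Hochberg adjustment over all of them and a threshold of 0.05. edgeR (4.0.16) and DESeq2 (1.42.0) were run on recovered reads. The pipelines were checked on simulated data with known changes. No 2 libraries of a group agreed within counting noise (9.86 to 20.1 chi-square per degree of freedom), as duplicate deposits of a library would. Depth leaves counting error that matters mainly for Cideb and Fitm1. Nothing states whether samples of a group came from separate cohorts of mice, so p-values measure only the spread between these pools.

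Positions and exon lengths are those of GENCODE M21 on GRCm38. Named genes are all 10 droplet protein genes, the 3 most abundant of each role and all with an unadjusted p under 0.05 in the list of other droplet genes, the 5 genes closest in pattern to each of Cidea, Cidec, Plin1 and Plin5, and the 2 most abundant markers of the adipocyte, brown or beige, muscle, macrophage and progenitor lists. Genes and lists were chosen with earlier results of these data known.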

Additional observations from a re-analysis of the deposited data

How the results depend on the processing

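The number of genes called over the whole table was 2 with limma (Elovl3, lower, and Zfp949, higher). It was 6 with at least 10 normalized counts required in every sample, 11 with robust shrinkage, 5 with edgeR and RLE factors, 149 with DESeq2, and 0 to 3 with each sample left out in turn (3 without control replicate 2, 0 without any of the others). The count of droplet protein genes called was 0 with limma and 2 with DESeq2 (Cidea and Plin5), and that of the other droplet genes 0 and 3, and both were 0 under each of the other alternatives. The cause was not tested. Plin4 changed sign to 0.0075 with TMM factors, 0.0048 with edgeR and TMM, 0.029 with limma-voom, and without control replicate 1 or AKO replicate 2 (-0.084 to 0.086 with each sample left out in turn). Plin2 did so without control replicate 2 (-0.27 to 0.0014), Cav1 without AKO replicate 2 (-0.16 to 0.013), Pparg without control replicate 1 (-0.13 to 0.0075) and Rxra without AKO replicate 1 or 3 (-0.023 to 0.079). With a sample left out, the log2 fold change of Cidea stayed between -0.94 and -0.65, that of Plin5 between -0.77 and -0.49, the Cidea to Cidec ratio between -0.81 and -0.44 and the Plin5 to Plin1 ratio between -0.71 and -0.36. Correlations of deviations from the group means were 0.135, -0.351 and 0.240 for equal replicate numbers, and from -0.500 to 0.335 for unequal ones. With 3 samples a group, these cannot tell whether the replicate numbers pair the samples. With the replicate number as a block, 2 genes were called, none of them a droplet protein gene, the adjusted p from limma was 0.0529 for Cidea and 0.114 for Plin5, and both ratios kept their values with an exact sign-flip p of 0.25, the smallest possible for 3 pairs. Depth limits the lowest genes most, such as Cideb with 5 to 17 reads a sample, and 3 samples a group limit all of them, since an exact test of 3 against 3 cannot go below 0.1.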
